A study of Homo sapiens with 4 samples.

Results

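The 188 transfer RNA (tRNA) genes of chromosomes 6 and 17 were examined for binding of CTCF, the zinc finger protein of insulators and loop anchors. They are all genes that RefSeq (assembly GRCh38.p14, the chromosomes of hg38) lists with the biotype tRNA on these chromosomes, 155 on chromosome 6 and 33 on chromosome 17, of 443 on chromosomes 1 to 22 and X. The choice used no measured value as a filter, but it was made with earlier results of these data known. Of the 188, 182 carry a numbered symbol such as TRA-AGC2-1 (amino acid, anticodon, number of the transcript, number of the gene copy), and 6 carry an unnumbered one (TRNAA-AGC and TRNAI-AAU).

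The series mapped CTCF by chromatin immunoprecipitation and sequencing in MDA-MB-435, an established melanoma cell line grown as unsynchronised cells or arrested in mitosis, with 2 samples for each of the 2 states. The asynchronous samples carry no labelled genetic change or drug and were immunoprecipitated with a rabbit antibody against CTCF, and the mitotic ones, arrested with thymidine and then nocodazole, with a rabbit antibody against CTCF phosphorylated at T431. The peak list of asynchronous replicate 1 is the only one analysed here, so the 2 cell cycle states were not compared and none of the values was checked in a replicate. The library had 19210460 sequencing tags, of which 11.66% lay in peaks, and gave 42388 peaks on chromosomes 1 to 22 and X. No control library is named, so extra DNA copies and binding cannot be told apart, and a gene without a called peak has no level here.

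tRNAs carry amino acids to the ribosome and pair with codons through their anticodon. Their genes are short and are transcribed by RNA polymerase III from promoter elements inside the gene itself, the A box and the B box, which the factor TFIIIC binds. Human tRNA genes occur in many near-identical copies, and the largest group lies beside the major histone gene cluster on the short arm of chromosome 6. Sites of TFIIIC and of CTCF are both known as insulator elements.

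RefSeq's promoter windows (GRCh38.p14, 250 bases before to 50 after each annotated gene start) hold no entry for any of the 188 genes. However, 4 tRNA genes of chromosome 6 lie whole inside the window of a neighbouring long noncoding RNA gene, and these are shown to set a tRNA gene with a peak beside 3 without. Capitals mark letters matching GCNNAGNNG (an A box form) or GTTCGANNC (a B box form), searched in these genes on the strand shown. TRA-AGC2-2 (chr6:28863685-28863756, minus strand) carries alanine and had a CTCF peak centre 574 bp away. The others were TRI-AAT8-1 (chr6:27668583-27668656, plus strand, isoleucine), TRL-AAG2-2 (chr6:28943622-28943703, minus strand, leucine) and TRI-TAT2-2 (chr6:27020346-27020439, plus strand, isoleucine), whose nearest peak centres were 17577, 25498 and 58574 bp away.
TRA-AGC2-2: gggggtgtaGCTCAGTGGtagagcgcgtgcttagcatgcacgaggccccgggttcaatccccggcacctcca
TRI-AAT8-1: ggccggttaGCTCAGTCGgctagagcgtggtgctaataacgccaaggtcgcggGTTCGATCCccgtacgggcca
TRL-AAG2-2: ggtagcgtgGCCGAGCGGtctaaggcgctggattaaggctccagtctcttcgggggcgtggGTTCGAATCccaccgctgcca
TRI-TAT2-2: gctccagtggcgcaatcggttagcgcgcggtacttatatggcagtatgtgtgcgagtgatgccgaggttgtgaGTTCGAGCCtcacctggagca
The A box letters began at base 10 of TRA-AGC2-2, TRI-AAT8-1 and TRL-AAG2-2 and were not found in TRI-TAT2-2. The B box letters were found at base 54 of TRI-AAT8-1, 62 of TRL-AAG2-2 and 74 of TRI-TAT2-2, and not in TRA-AGC2-2. However, TRA-AGC2-2 holds gttcaatcc, which differs from that form in a single letter, so a B box of another form was not excluded. Likewise, TRI-TAT2-2 holds gcgcaatcg at base 10, a single letter from the A box form, so an A box of another form was not excluded there. The strand shown is itself the one on which the A or B box letters read forward. For comparison, 63.4% of 35116 RefSeq promoter windows, which are longer than these genes, held the A box letters and 0.829% the B box letters on either strand. None of these 4 tRNA genes held a CTCF core word (AGGGGGC or AGGTGGC or AGAGGGC or AGATGGC, both strands).

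Promoter windows covered 3 of the peak centres near these tRNA genes, and all 3 are shown. The window of LOC124901296, a long noncoding RNA gene (chr6:28838974-28839273, minus strand), covers the centre of a peak 525 bp from TRA-AGC2-1, which by its number makes the same transcript as TRA-AGC2-2. It holds 1 CTCF core word, in capitals, whose middle lies 5 bp from the peak centre. The upstream part of the window of HMGN4, a nucleosome-binding protein gene (chr6:26538116-26538365, plus strand), covers the centre of the weakest of all peaks near these tRNA genes, 180 bp from TRV-CAC1-6, and holds no such word. The window of LOC105374988, a long noncoding RNA gene (chr6:26569074-26569373, plus strand), covers the centre of a peak 354 bp from TRY-GTA1-1 and holds none either.
LOC124901296: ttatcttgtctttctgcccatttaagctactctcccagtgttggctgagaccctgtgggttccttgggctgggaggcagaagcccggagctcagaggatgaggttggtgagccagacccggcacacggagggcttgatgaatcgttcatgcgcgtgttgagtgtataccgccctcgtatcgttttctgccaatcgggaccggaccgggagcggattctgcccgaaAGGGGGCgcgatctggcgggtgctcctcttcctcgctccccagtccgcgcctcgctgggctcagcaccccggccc
HMGN4: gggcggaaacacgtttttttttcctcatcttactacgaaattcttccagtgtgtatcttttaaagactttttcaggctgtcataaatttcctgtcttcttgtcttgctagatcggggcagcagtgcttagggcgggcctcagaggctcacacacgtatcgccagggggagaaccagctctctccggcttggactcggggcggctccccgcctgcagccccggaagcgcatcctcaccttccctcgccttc
LOC105374988: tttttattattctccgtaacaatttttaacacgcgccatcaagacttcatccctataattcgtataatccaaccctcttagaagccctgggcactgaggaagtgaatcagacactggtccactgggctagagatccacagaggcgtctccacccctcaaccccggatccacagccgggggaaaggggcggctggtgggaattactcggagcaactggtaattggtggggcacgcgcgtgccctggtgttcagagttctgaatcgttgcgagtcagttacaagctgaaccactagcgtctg
The LOC124901296 peak held 38.8 normalised tags (tags scaled to a depth of 10000000, exact Poisson 95% interval 30.7 to 48.9). The HMGN4 peak held 7.55 (4.37 to 12.9) and the LOC105374988 peak 25.8 (19.3 to 34.3). They stood at percentiles 78.9, 1.00 and 62.5 of all scores. The HMGN4 peak had a score of 15, where the caller kept peaks of 15 tags or more. A CTCF core word was thus present in 1 of these 3 windows, beside 30.5% of the 35116 promoter windows. A match is a description of letters and not a measured site.

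A gene was counted as having a peak when a peak centre lay inside it or within 1 kb of it. On chromosome 17, 18 of 33 tRNA genes had a peak (54.5%, Clopper-Pearson 95% interval 36.4 to 71.9). On chromosome 6, 25 of 155 had one (16.1%, 10.7 to 22.9), so the intervals of the 2 chromosomes did not overlap. With peaks below the median score left out they did overlap, at 24.2% on chromosome 17 (11.1 to 42.3) and 11.0% on chromosome 6 (6.52 to 16.98). Over both, with all peaks, 43 of 188 had a peak (22.9%, 17.1 to 29.5). tRNA genes of the other chromosomes had a peak in 27.1% (69 of 255, 21.7 to 33.0), between the values of chromosomes 6 and 17. All intervals cover counting error only, and neighbouring tRNA genes can share a peak, so they are narrower than genes that depend on each other warrant. With tRNA genes within 1 kb of each other counted as 1 locus, the counts were 10 of 18 on chromosome 17 (55.6%, 30.8 to 78.5) and 24 of 140 on chromosome 6 (17.1%, 11.3 to 24.4).

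Other kinds of gene give the background. Of other short RNA genes (miRNA, snoRNA and snRNA genes of at most 200 bp), 5.83% had a peak within 1 kb (186 of 3192, 5.04 to 6.70), with 4 of 125 on chromosome 6 (3.20%, 0.879 to 7.99) and 14 of 176 on chromosome 17 (7.95%, 4.42 to 13.0). The tRNA shares lay above these on both chromosomes, with intervals that did not overlap. Protein-coding genes had a peak within 1 kb of either annotated end in 28.2% (5637 of 19970), and of the lower-coordinate end alone, a window closer in size to that of a tRNA gene, in 15.1%. Against the lower-end value the chromosome 17 share was higher, and the chromosome 6 share had an interval that included it. Against the either-end share of the same chromosome, 32.1% on chromosome 6 (29.3 to 35.05) and 29.8% on chromosome 17 (27.2 to 32.5), the tRNA interval lay below on chromosome 6 and above on chromosome 17. Counted by locus, the tRNA interval still lay below on chromosome 6 (11.3 to 24.4), but on chromosome 17 (30.8 to 78.5) it overlapped the either-end interval. No test was run, since there is 1 library.

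**Figure D1:**
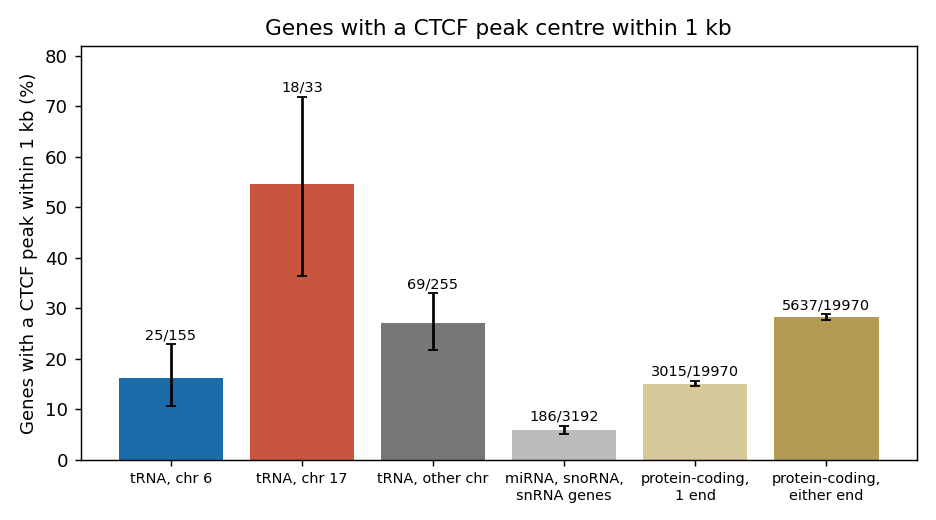
Share of genes with a CTCF peak centre within 1 kb (bars, percent), with Clopper-Pearson 95% intervals (lines) and the counts above them, for tRNA genes, other short RNA genes and protein-coding genes in asynchronous replicate 1. tRNA genes of chromosome 17 stand at 54.5%, those of chromosome 6 at 16.1% and other short RNA genes at 5.83%.

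Peak density was highest within 1 kb of the tRNA genes. On chromosome 6 there were 74.5 peaks per Mb of sequence within 500 bp of a tRNA gene (exact Poisson 95% interval 38.5 to 130.2) and 96.4 per Mb from 500 bp to 1 kb (51.4 to 164.9). From 1 to 2 kb there were 4.12 per Mb (0.104 to 22.9, 1 peak), from 2 to 5 kb 6.16 (1.27 to 18.0) and from 10 to 20 kb 33.4 (19.5 to 53.5). On chromosome 17 the density was 290.1 per Mb within 500 bp (125.2 to 571.5) and 170.7 from 500 bp to 1 kb (35.2 to 498.8), and from 1 to 2 kb there were 0 peaks in 33.3 kb of sequence, which allows up to 110.7 per Mb. Around tRNA genes of other chromosomes the 3 bins up to 2 kb had 184.2, 59.4 and 13.6 peaks per Mb. The chromosome-wide rates were 1.44 peaks per 100 kb on chromosome 6 and 2.18 on chromosome 17, each inside the interval of its 1 to 2 kb bin, so a rate below the ordinary one was not shown there. The caller allowed no 2 peaks within 698 bp and required each peak to stand 4-fold over its surrounding 10 kb, and the part of these filters in the low values beyond 1 kb was not tested.

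**Figure D2:**
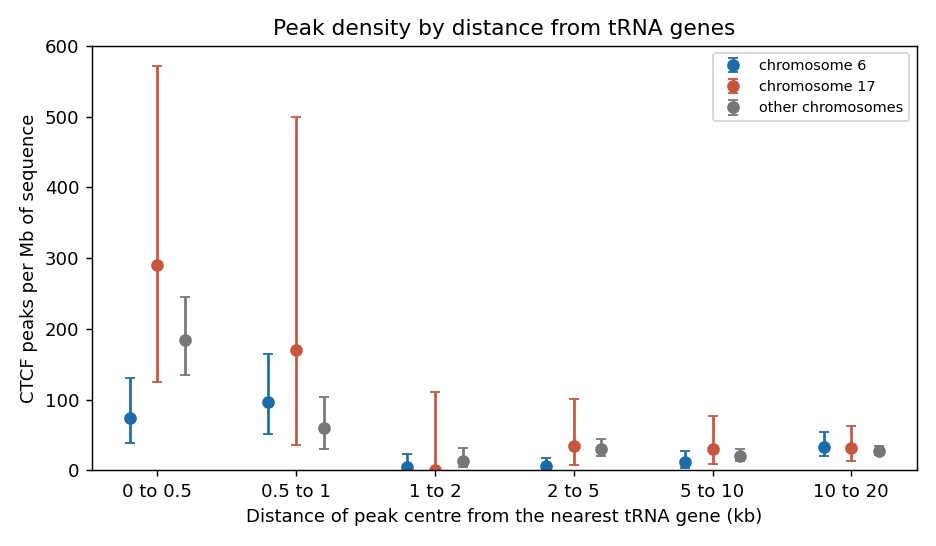
CTCF peaks per Mb of sequence (points, with exact Poisson 95% intervals) by distance of the peak centre from the nearest tRNA gene in kb, on chromosome 6, chromosome 17 and the other chromosomes. All 3 sets are highest in the 2 bins up to 1 kb and lowest from 1 to 2 kb.

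Among the 43 tRNA genes with a peak, the median distance to the nearest peak centre was 464 bp, and most centres lay outside the gene. The 1 kb limit bounds this median, and a tRNA gene fills little of its window. Centres spread evenly over the window would thus also lie mostly outside the gene, and their placement was not tested. A single centre fell inside a tRNA gene, in TRC-GCA4-1 (cysteine). In 13 genes the centre was up to 250 bp outside, in 9 genes over 250 and up to 500 bp and in 20 genes over 500 bp away. For 11 genes the peak region itself reached the gene. The last gene inside the window was TRY-GTA6-1 at 999 bp, and the first outside it was TRD-GTC2-11 at 1159 bp. A further 20 genes had their nearest centre between 1 and 5 kb, 11 of them on chromosome 17, which left 4 genes of chromosome 17 and 121 of chromosome 6 more than 5 kb from a peak.

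Over both chromosomes, the share with a peak was higher near protein-coding gene ends. Of tRNA genes up to 1 kb from such an end, 9 of 14 had a peak (64.3%, 35.1 to 87.2), from 1 to 10 kb 12 of 34 (35.3%, 19.7 to 53.5), from 10 to 100 kb 20 of 94 (21.3%, 13.5 to 30.9) and beyond 100 kb 2 of 46 (4.35%, 0.531 to 14.8). Neighbouring classes had overlapping intervals, while the first and the last did not overlap over both chromosomes together. Of the 14 genes in the first class 10 lie on chromosome 17, and all 46 of the last lie on chromosome 6. On chromosome 6 alone the first class had 2 of 4 (6.76 to 93.2) and the last 2 of 46, with overlapping intervals. The middle step was not present within either chromosome: from 1 to 10 kb and from 10 to 100 kb the counts were 3 of 15 and 18 of 90 on chromosome 6, and 9 of 19 and 2 of 4 on chromosome 17. Divided at 10 kb, 21 of 48 near genes (43.8%, 29.5 to 58.8) and 22 of 140 far genes (15.7%, 10.1 to 22.8) had a peak. With peaks below the median score left out, the shares were 20.8% (10.5 to 35.0) and 10.7% (6.12 to 17.1), and their intervals overlapped. The 2 genes beyond 100 kb with a peak were TRV-AAC3-1 and TRI-AAT2-1 (valine and isoleucine), whose nearest protein-coding gene is H2BC13, a histone H2B gene.

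The 2 chromosomes differed in this respect before any peak was counted. tRNA genes of chromosome 17 lay a median of 1795 bp from a protein-coding end and those of chromosome 6 a median of 36957 bp, with 136 of 155 over 10 kb away. Within the near class, 16 of 29 genes of chromosome 17 had a peak (55.2%, 35.7 to 73.6) and 5 of 19 of chromosome 6 (26.3%, 9.15 to 51.2), with overlapping intervals. Among those 5, TRR-ACG1-2 and TRV-CAC1-6 share the HMGN4 peak, the weakest near these tRNA genes. Within the far class the counts were 2 of 4 (50%, 6.76 to 93.2) and 20 of 136 (14.7%, 9.22 to 21.8). On each chromosome the intervals of the near and the far class overlapped, so the pooled difference cannot be told apart from one between the chromosomes. Of the 12 tRNA genes inside a protein-coding gene, 5 had a peak.

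Shares of other short RNA genes also fell over the 4 classes, at lower values. They had a peak in 18.8% up to 1 kb from a protein-coding end (59 of 313, 14.7 to 23.6), 6.13% from 1 to 10 kb, 3.85% from 10 to 100 kb (55 of 1427, 2.92 to 4.99) and 2.77% beyond 100 kb. In the first 3 classes the interval of the tRNA genes of chromosomes 6 and 17 lay above theirs, and beyond 100 kb the intervals overlapped. tRNA genes of the other chromosomes gave 20 of 42, 19 of 67, 30 of 129 and 0 of 17 in the same classes, where the 0 allows a share of up to 19.5%. Far tRNA genes of chromosome 6 kept the density profile, with 63.2 peaks per Mb within 500 bp, 98.7 from 500 bp to 1 kb and 0 peaks from 1 to 2 kb.

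**Figure D3:**
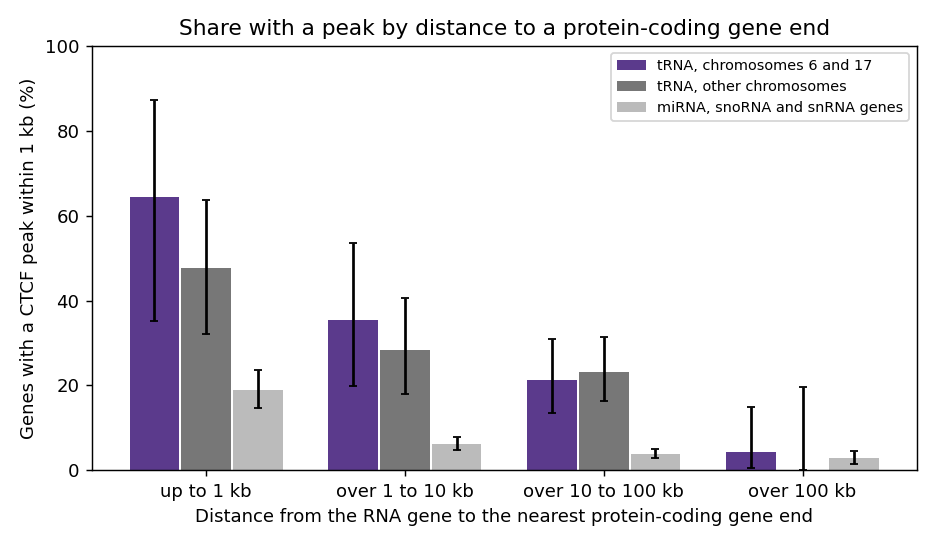
Share of genes with a CTCF peak within 1 kb (bars, percent, with Clopper-Pearson 95% intervals) by distance from the RNA gene to the nearest protein-coding gene end, for tRNA genes of chromosomes 6 and 17, tRNA genes of other chromosomes and other short RNA genes. The tRNA genes of chromosomes 6 and 17 fall from 64.3% to 4.35% over the 4 classes, and the other short RNA genes from 18.8% to 2.77%.

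The 43 genes shared 36 distinct peaks, 25 on chromosome 6 and 11 on chromosome 17. Their median was 23.95 normalised tags, with quartiles of 16.0 and 44.1, beside 20 normalised tags (12 and 34.6) for all 42388 peaks, so they covered much of the range of the list. Of the 36, 23 had a score at or above the list's median (63.9%), 7 were in its top 10% and 4 in its lowest 25%. Over the surrounding 10 kb they stood a median of 10.7-fold, beside 13.6 for all peaks, and the median local background (normalised tags divided by that fold) was 2.18, beside 1.47. That local background can hold tags of neighbouring peaks, and its part in these values was not tested. Only 5 of the 36 lay within 1 kb of a protein-coding gene end (13.9%, 4.67 to 29.5), beside 12.4% of all peaks, so the other 31 were near a tRNA gene without being at such an end. Some of the 31 lay within 1 kb of a long noncoding RNA gene end. These ends were of LOC124901296 (17 and 275 bp), LOC105374988 (22 bp), HCG11 (85 bp), LOC107986586 (328 bp), LINC00324 (575 bp) and LINC01623 (653 bp). The share of all peaks near such ends was not counted. The scores, folds and tags are the authors' own and are used here as descriptions inside 1 list.

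The strongest peak belonged to an initiator methionine tRNA gene. TRX-CAT1-8 (chr17:82494721-82494792) had a peak of 126.2 normalised tags (110.6 to 142.9) centred 20 bp outside the gene. It stood 45.0-fold over its surroundings, at percentile 99.4 of all scores, with NARF the nearest protein-coding gene at 4275 bp. Initiator tRNA begins translation. The 6 copies with the same transcript number on chromosome 6, TRX-CAT1-2 to TRX-CAT1-7, had their nearest centres between 6841 and 28081 bp away. A further copy on chromosome 1, TRX-CAT1-1, had a peak of 11.2 normalised tags (7.18 to 17.3) centred 57 bp from the gene. Next came the peak of TRY-GTA6-1 (tyrosine, chr6:26594874-26594962) with 80.2 normalised tags (68.0 to 93.9) and the highest focus ratio of the 36 (0.931, the share of tags that lie on the side of the centre where their strand should place them). That peak lay 992 bp from an end of ABT1, which encodes an activator of basal transcription.

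**Figure D4:**
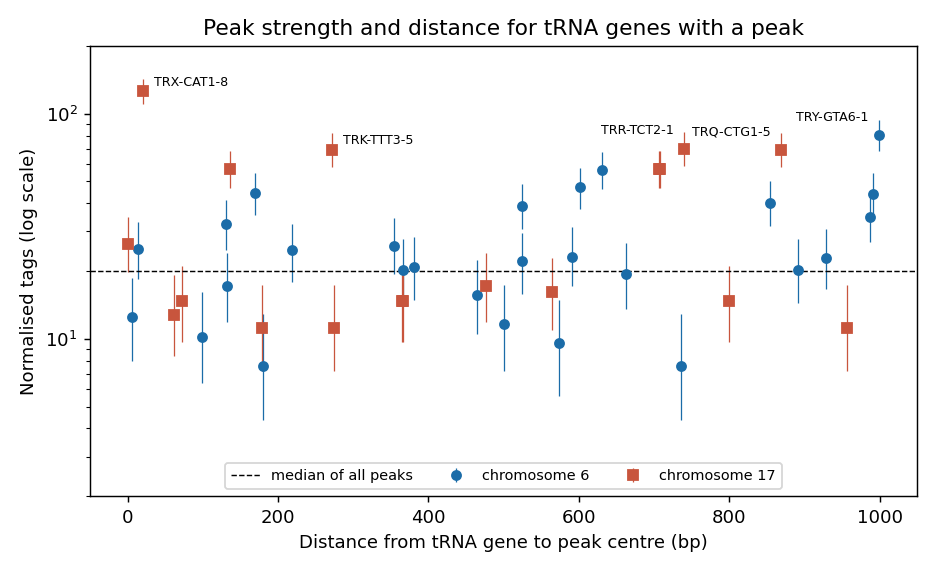
Normalised tags of each CTCF peak (log scale, with exact Poisson 95% intervals) against the distance from the tRNA gene to the peak centre in bp, with 1 point for each pair of tRNA gene and peak within 1 kb. The dashed line is the median of all peaks (20 normalised tags), and TRX-CAT1-8 stands highest at 126.2.

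On chromosome 17 the tRNA genes form 4 clusters (runs with gaps of at most 100 kb) and 7 single genes. The largest cluster holds 18 genes (chr17:8119155-8227064), of which 10 had a peak, from 5 distinct peaks. TRK-TTT3-5 and TRQ-CTG1-5 (lysine and glutamine) shared a peak of 69.2 normalised tags (58.0 to 82.05) centred 33 bp from an end of ALOXE3, a skin lipoxygenase gene. TRR-TCT2-1 (arginine), inside HES7, a segmentation clock gene, had a peak of 70 (58.4 to 82.6), and TRS-CGA1-1 and TRT-AGT5-1 (serine and threonine) shared one of 56.7 (46.6 to 68.4) located 1727 bp from PER1, a circadian clock gene. These 3 peaks lay between percentiles 91.2 and 95.1 of all scores.

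The other peaks of that cluster were weaker. A peak of 14.8 normalised tags (9.69 to 21.1) near BORCS6 lay within 1 kb of 4 tRNA genes at once, TRW-CCA3-3, TRS-GCT4-3, TRT-AGT1-1 and TRI-AAT5-5. TRP-CGG1-3 (proline) had a peak of 16.1 (11.0 to 22.9), with CTC1, a telomere replication gene, at 1347 bp. The local background was 6.25 and 6.86 at the ALOXE3 and HES7 peaks, and TRD-GTC2-11 was the first gene by name without a peak. With 8 peaks in the span and 10 kb on each side, the cluster had 6.25 peaks per 100 kb (2.70 to 12.3), beside 2.18 over chromosome 17.

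Elsewhere on chromosome 17, 8 of 15 tRNA genes had a peak. TRC-GCA4-1 had 26.5 normalised tags (19.8 to 34.9) with the centre inside the gene, 698 bp from an end of LASP1. TRC-GCA2-3 had 56.7 (46.6 to 68.4) at 708 bp, 59 bp from an end of PLXDC1. TRQ-TTG1-1 had 17.2 (nearest protein-coding gene GNGT2) and TRR-CCG2-1 12.8 (KPNA2), both over 10 kb from a protein-coding end. The 3 arginine genes TRR-CCT1-1, TRR-CCT2-1 and TRR-TCG3-1, inside KCTD2, shared 1 peak of 11.2 (7.18 to 17.3).

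On chromosome 6, 144 of the 155 tRNA genes lie in one stretch of 2.70 Mb (chr6:26286526-28989083). It held 56 peaks, of which 24 lay within 1 kb of a tRNA gene (42.9%), although those windows make up 10.1% of its length. The density was 87.9 peaks per Mb inside the windows (56.3 to 130.8) and 13.2 outside (9.002 to 18.6). Of the 144 genes, 24 had a peak (16.7%). Histone genes lie in the same stretch, but no peak of the 25 on chromosome 6 was nearer than 10551 bp to a histone gene end.

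Within the stretch the clusters differed in their counts. The cluster at chr6:26286526-26331515 had a peak at 1 of 13 genes, TRR-TCG2-1 (56 normalised tags, 46.1 to 67.9), and TRQ-TTG3-1 was the first by name without one. The cluster at chr6:26521208-26828299 had a peak at 6 of 31 genes, the next at chr6:27020346-27335062 at 5 of 21 and the one at chr6:27478812-27795932 at 7 of 33. The largest, at chr6:28474552-28989083, had a peak at 4 of 43. The first genes by name without a peak were TRA-AGC10-1, TRI-AAT3-1, TRD-GTC2-6 and TRA-AGC1-1 in that order. Peak densities over the spans ran from 1.54 to 2.99 per 100 kb in these 5 clusters, with overlapping intervals.

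In the 6 of 31, besides TRY-GTA6-1, the values were 11.7 normalised tags for TRL-CAG1-7 (leucine) and 7.55 for a peak shared by TRR-ACG1-2 and TRV-CAC1-6, 60 bp from HMGN4. TRY-GTA1-1 had 25.8 (19.3 to 34.3) and TRA-AGC11-1 had 40.1 (31.6 to 50.1). In the 5 of 21, TRH-GTG1-5 (histidine) had 25 with its centre 14 bp outside the gene. TRT-AGT6-1 had 24.7 and TRI-AAT5-2 had 23.2, all 3 nearest to H2AC12, a histone H2A gene. TRR-ACG2-2 had peaks of 19.5 and 20.3, and TRR-ACG2-3 had the latter at 366 bp. These lay between 19.5 and 25 normalised tags, near the median of the whole list.

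In the 7 of 33, TRI-AAT2-1 had the highest value, 47.1 normalised tags (37.7 to 57.6), then TRQ-CTG6-1 with 44, TRV-AAC1-5 with 34.9 and TRQ-TTG3-3 with 32.5. TRQ-CTG1-2 had 22.1, TRV-AAC3-1 had 12.5 with its centre 6 bp outside the gene and TRS-AGA2-3 had 10.2. In the 4 of 43, TRA-AGC2-1 had 2 peaks, the 38.8 given above and one of 22.9, TRR-TCG5-1 had 20.8, TRA-AGC3-1, inside SCAND3, had 17.2, and TRA-AGC2-2 had 9.63. The single genes TRL-TAA1-1 (nearest protein-coding gene STX11) and TRS-GCT5-1 (nearest ZSCAN9) had 44.5 and 15.6. Over the stretch, the protein-coding genes nearest to the remaining peaks were ABT1, BTN1A1, GPX5, H2BC13, H4C8, HMGN4, PRSS16, TRIM27 and ZNF184.

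Long stretches of chromosome 6 held tRNA genes and no called peak. The longest, 349.4 kb between neighbouring peak centres (26607567 and 26956993), held 18 tRNA genes, 10 of alanine, 5 of methionine and 3 of isoleucine, including 5 with the unnumbered symbol TRNAA-AGC. In it TRI-AAT7-2 lay 173055 bp from a peak centre, the farthest of all 188 genes. All 6 tRNA genes of the cluster at chr6:57800211-57856473 lay in another such stretch of 288.1 kb, with TRA-AGC12-3 first by name. How reads that match several near-identical copies were handled is not given in the sources used here, and its part in these stretches was not tested.

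By amino acid, 15 of the 21 isotypes on these chromosomes had at least 1 gene with a peak. Over all isotypes, 43 of the 188 genes had a peak (22.9%). Arginine genes had the most, 10 of 16, 5 of 11 on chromosome 6 and 5 of 5 on chromosome 17. They covered each of the 5 arginine anticodons present: 3 of 5 genes for ACG, 3 of 4 for TCG, 2 of 2 for CCT, 1 of 3 for CCG and 1 of 2 for TCT. Among the 10, 3 share 1 peak on chromosome 17, and TRR-ACG2-2 and TRR-ACG2-3 share 1 on chromosome 6. Glutamine had 5 of 13, cysteine 2 of 5, tyrosine 2 of 4, valine 3 of 9, threonine 3 of 13, serine 4 of 20, isoleucine 3 of 17 and leucine 2 of 12. Alanine, the most numerous with 31 genes, all on chromosome 6, had 4.

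Single peaks were found for lysine (1 of 7), initiator methionine (1 of 7), tryptophan (1 of 5), proline (1 of 3) and histidine (1 of 1). The 6 isotypes with none were methionine (0 of 8), phenylalanine (0 of 6), aspartate and glycine (0 of 4 each), glutamate (0 of 2) and asparagine (0 of 1). On other chromosomes each of these 6 had a gene with a peak, such as TRM-CAT6-1, TRF-GAA1-6, TRD-GTC2-1, TRG-TCC4-1, TRE-TTC2-1 and TRN-GTT1-1. With so few genes, and genes that share peaks, these counts describe the isotypes and were not tested against each other.

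**Figure D5:**
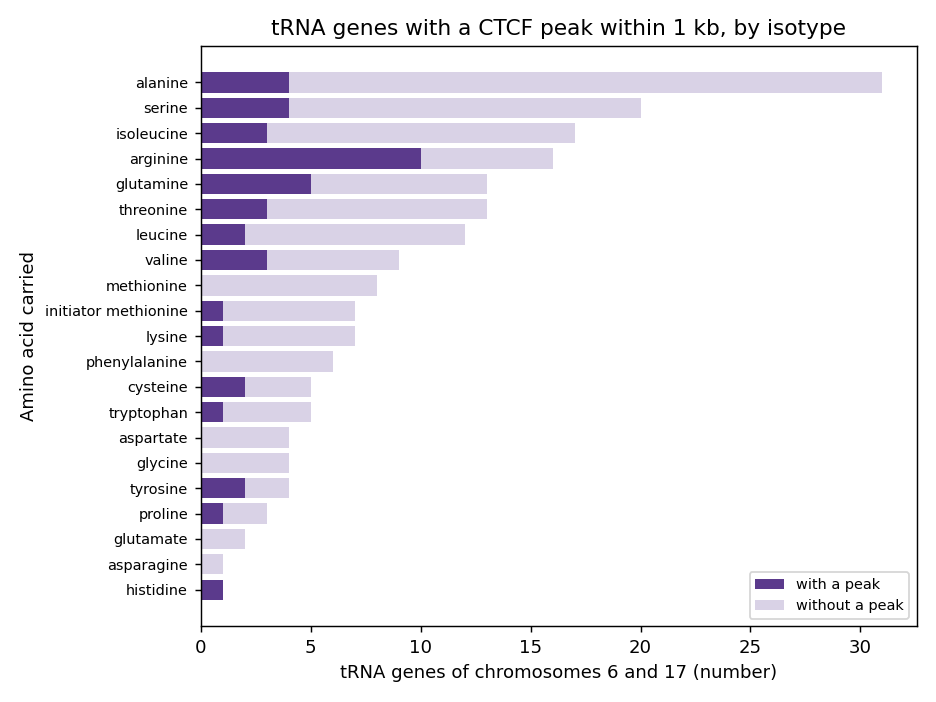
Number of tRNA genes of chromosomes 6 and 17 for each amino acid carried, divided into genes with (dark) and without (pale) a CTCF peak within 1 kb. Arginine has 10 of 16 genes with a peak, alanine 4 of 31 and methionine 0 of 8.

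Copies with the same transcript number often differed. Of 137 numbered transcripts, 27 had at least 2 gene copies on these chromosomes, 72 genes in all. In 12 of the 27 some copies had a peak and others did not, in 14 none had one, and in 1, TRA-AGC2, both had one. TRS-AGA2 (serine) had a peak at 1 of 5 copies, TRQ-CTG1 (glutamine) and TRI-AAT5 (isoleucine) at 2 of 4 each, and TRR-ACG2 (arginine) at 2 of 3. TRM-CAT4 (methionine) had none at 3 copies, the nearest centre lying 127803 bp away.

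Genes of the machinery that makes and uses tRNAs were counted at either annotated end, against the 28.2% of all protein-coding genes. Of 35 genes for RNA polymerase III, its factors and shared subunits, 13 had a peak (37.1%, 21.5 to 55.1). SNAPC4 had 105.4 normalised tags (91.1 to 120.7), SNAPC5 had 98.4 (both encode subunits of the complex that serves small nuclear RNA genes), and POLR3E, a polymerase III subunit, had 98.1. A peak with the same tags and score lay 63 bp from TRL-AAG2-4, a leucine tRNA gene also on chromosome 16. Of 23 genes for cytosolic aminoacyl-tRNA synthetases, which load tRNAs, and their scaffold proteins, 7 had a peak (30.4%, 13.2 to 52.9), led by VARS1 (valine) at 91.1, AARS1 (alanine) at 79.6 and RARS1 (arginine) at 75.2. Of 22 genes for tRNA processing and export 10 had a peak (45.5%, 24.4 to 67.8), led by TSEN54, of the splicing endonuclease, at 165.8, POP7 at 78.3 and RPP14 at 73.1, both of ribonuclease P. The interval of each list included the 28.2% of all protein-coding genes.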

How the data were processed

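CTCF ChIP-seq peaks of asynchronous replicate 1 were used; the other 3 samples were not analysed here. Per the submitters' processing notes the tools were Bowtie2 and HOMER and the build hg38, with no versions stated. Per the file headers, findPeaks ran in factor style on this library alone. It considered 1 tag per position, took fragments as 164 bp long, and kept peaks of 15 tags or more (false discovery rate 0.001) that stood 4-fold over 10 kb of surroundings, and no control library is named. Per the file headers, the deposited signal is the tags of a peak brought to a library depth of 10000000. The focus ratio, as deposited, is a fraction (tags on the side their strand predicts), the peak score is the authors' caller's own score, and the deposited fold compares tag densities with the local region as a ratio. The deposited p-value was not used. Normalised tags were not limited to 1 per position, since the highest value exceeds what that limit allows, so Poisson intervals can be too narrow.

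Distances were measured here from the tRNA gene body to the peak centre. Gene positions and kinds came from RefSeq (GRCh38.p14), and all 188 tRNA genes had positions. Its table gives no strand for these genes, so the strand of the 4 printed tRNA genes is that on which the A or B box letters read forward. Shares have Clopper-Pearson and peak counts exact Poisson 95% intervals, and no hypothesis test was run because there is 1 library. The distance code was tested on simulated peaks and returned 212 of 212 placed distances. Every member with a peak, its nearest protein-coding gene, each cluster, the first gene by name without a peak in clusters of at least 5 genes, and 3 genes of each list were named by rule. The members and gene lists were chosen with earlier results of these data known. Alternatives varied the window, score threshold, distance definition, gene grouping and gene-end limits. Scripts ran under Python 3.11.15 with scipy 1.17.1, pandas 2.3.3, numpy 2.4.6 and matplotlib 3.10.9.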

Additional observations from a re-analysis of the deposited data

How the results depend on the processing

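On chromosome 6 the share of tRNA genes with a peak stayed within its 95% interval under 7 of 8 alternatives and was 7.74% with a window of 500 bp. On chromosome 17 it stayed within its interval under 5 of 8, and was 33.3% with a window of 500 bp, 87.9% with 5 kb and 24.2% with peaks below the median score left out, 8 of 33 genes beside 17 of 155 (11.0%) on chromosome 6; the intervals of the chromosomes then overlapped (11.1 to 42.3 and 6.52 to 16.98). For genes near a protein-coding end the share was 25% with 500 bp, 68.8% with 5 kb and 20.8% with peaks at or above the median score, when far genes had 10.7% and the intervals overlapped. For far genes it was 7.86% with 500 bp and 5.97% when far meant over 50 kb. With clusters ended by gaps of 500 kb, 2 of 7 clusters or single genes of chromosome 6 had a peak, beside 7 of 13. The protein-coding share was 15.1% for the lower end alone and 57.8% for any point of the gene. Counting only numbered symbols, or leaving out the largest cluster of each chromosome, both chosen after seeing the data, gave 16.8% and 18.8% on chromosome 6 and 54.5% and 53.3% on chromosome 17. A wider window counts more sequence by construction; other causes were not tested. No paired analysis was possible because only 1 sample was analysed and no test was run.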

Other observations

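Other products of RNA polymerase III had a peak within 1 kb in 6 of 19 genes (31.6%, 12.6 to 56.6). All tRNA genes had one in 25.3% and protein-coding genes at either end in 28.2%, both inside that interval, and other short RNA genes in 5.83%, below it. RN7SL2, an RNA of the signal recognition particle, had 154.3 normalised tags (137.0 to 172.7) and RN7SL1 had 46.8. RNY4, a Y RNA gene, had 60.4, RN7SK, which restrains transcription elongation, had 62.5, RMRP had 51 and RNY5 had 9.89.

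Among tRNA genes of the remaining chromosomes, all 7 on chromosome 19 and all 4 on chromosome 13 had a peak, and 18 of 98 on chromosome 1 did (18.4%, 11.3 to 27.5), the chromosome with the next most tRNA genes after chromosome 6. The peak of highest score there was at TRT-TGT2-1 on chromosome 1, with 156.9 normalised tags (139.5 to 175.4) at 426 bp. The chromosomes and the gene in this paragraph were chosen after seeing their values.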
